A study of Mus musculus with 8 samples.

Results

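Genes of the lysosome and of autophagy were examined in B cells that lacked the RNA helicase EIF4A1. The group was taken from the deposited tables by gene symbol and holds 47 genes of the 53242 listed there, each found once and each with enough reads to be tested. They fall into 11 roles. There are 3 transcription factor genes, 24 genes of the lysosome itself and 20 genes of the autophagy machinery.

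Splenic B cells were isolated from C57BL/6 mice aged 8 to 12 weeks and activated on CD40LB cells, an irradiated (120 Gy) feeder line that presents CD40 ligand and BAFF, in medium with 40 ng/ml IL4. After 24 h the feeder cells were removed with magnetic beads, and total RNA was sequenced from 8 libraries. The 4 control mice were Eif4a1 +/+ Cd23-cre and the 4 knockout mice were Eif4a1 fl/fl Cd23-cre (4A1 KO), so both groups carried the Cd23-cre transgene, which deletes floxed genes from the immature B cell stage in the spleen onward. Replicates 1 and 2 of each genotype were a male and a female of batch A, and replicates 3 and 4 a male and a female of batch B. The study left out replicate 1 of both genotypes for its poor viability, so the tests compared 3 libraries per genotype. Values of replicate 1 are given beside them for the called genes and some others.

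Lysosomes are acidic compartments in which proteases, glycosidases and lipid-degrading enzymes break down material delivered by endocytosis or autophagy, and in B cells these proteases also process antigen for presentation to T cells. The vacuolar ATPase pumps the protons that acidify the lumen. In autophagy, a kinase complex and a lipid kinase complex start a double membrane, a ubiquitin-like conjugation system couples ATG8 family proteins to it, and receptors carry cargo into the closed vesicle, which then fuses with a lysosome. TFEB, TFE3 and MITF, the MiT/TFE transcription factors, bind the CLEAR element, whose core is an E-box, in promoters of many lysosomal and autophagy genes.

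Eif4a1 itself was at 933 to 1142 TPM (a level scaled to transcript length and to the library) in the 4 controls and at 700.4 to 843 TPM in the 4 knockouts, without overlap. The floxed segment covers only some exons, so the level over the whole gene measures the loss in part. Libraries held between 31727557 and 43210858 counted reads, and the 6 libraries compared held at least 38488341. The B cell marker list summed to 5412 to 6266 TPM in controls and 5622 to 5723 TPM in 4A1 KO, with Fcer2a its largest part, and 3 of its 8 genes decreased, Cd79b (log2 fold change -0.89), Cd22 (-0.76) and Cd79a (-0.67). T cell markers apart from Lck, and the erythroid markers, were under 1 TPM in every library. The 6 macrophage and monocyte markers summed to 8.42 to 20.8 TPM in controls and 6.05 to 9.87 TPM in 4A1 KO, with Csf1r, Itgam and Cd14 under 1 TPM throughout. The 7 fibroblast markers, which would include feeder cells, summed to 3.20 to 14.6 TPM in controls and 4.97 to 9.52 TPM in 4A1 KO. Of these, Fn1 increased (log2 fold change 0.86) and Col3a1, under 1 TPM in every library, decreased (-1.57). Col1a1, Col1a2 and Sparc did not pass. Lum was at 0 in all 8 libraries, and control 2 had the highest sum of both lists. In a bulk measurement, fewer cells of a type cannot be told apart from less RNA per cell. Each library came from 1 mouse.

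The 47 genes did not move in one direction. A gene was called when its edgeR adjusted p, from the quasi-likelihood test with Benjamini-Hochberg adjustment over all 14218 genes tested, was under 0.05 and its log2 fold change (4A1 KO against control) was above 0.5 in size. By this rule 10 of the 47 were called (21.3%), beside 25.3% of all genes tested. Tfe3, Atg3, Rb1cc1 and Atg16l1 increased (8.51% of the group, 11.6% of all genes), and Optn, Psap, Hexa, Gusb, Asah1 and Ctsb decreased (12.8% of the group, 13.7% of all genes). The shares called were thus near those of the whole transcriptome.

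**Figure D1:**
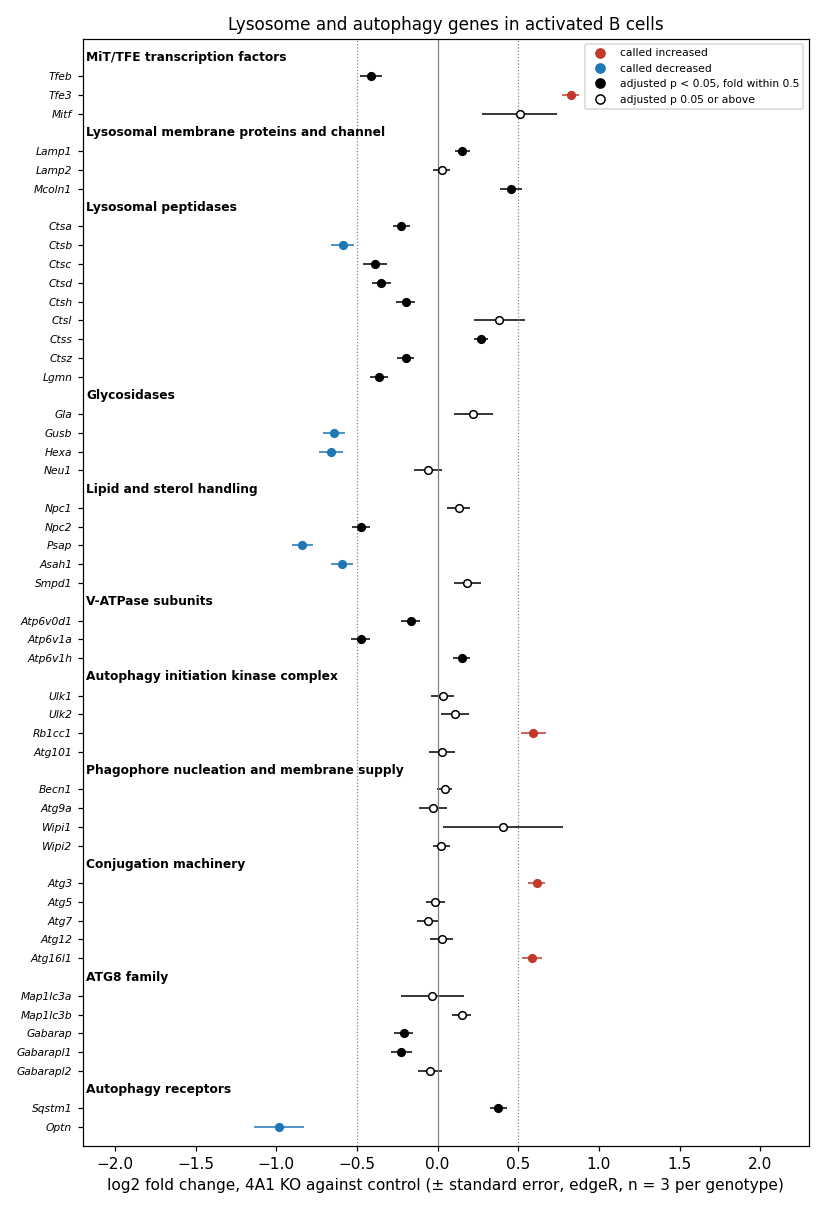
Log2 fold change (x axis, 4A1 KO against control, edgeR, 3 libraries per genotype, bars are standard errors) of each of the 47 genes, grouped by role. Red points were called increased, blue points called decreased, filled black points had an adjusted p under 0.05 with a smaller fold change, and open points had an adjusted p of 0.05 or above. The blue points lie mostly among the peptidases, glycosidases and lipid-handling genes, and all points of the nucleation group are open.

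Without the fold threshold, 27 of the 47 had an adjusted p under 0.05 (57.4%, against 53.0% of all genes). Of these 27, 9 were higher in 4A1 KO (19.1% of the group, 26.3% of all genes) and 18 were lower (38.3% of the group, 26.7% of all genes). Without the replicate block, 15 of the 27 kept an adjusted p under 0.05, 5 higher and 10 lower, beside 35.8% of all genes. Tfeb, Ctss, Sqstm1, Lgmn, Lamp1, Ctsa, Ctsh, Ctsz, Atp6v0d1, Atp6v1h, Gabarap and Gabarapl1 were the 12 that did not. The median log2 fold change over the 47 was -0.01, beside 0.01 over all genes tested. In the same-numbered pairs of libraries the median was -0.04, -0.04, 0.01 and -0.05 for replicates 1 to 4. In counts scaled to the library (CPM), the genotypes did not overlap for 21 of the 47 in the 6 libraries (44.7%, against 50.9% of all genes), and for 13 in all 8 libraries (27.7%, against 36.9%).

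The roles differed in what they contained. Of the 18 peptidase, glycosidase and lipid-handling genes, 12 had an adjusted p under 0.05 and were lower in 4A1 KO (66.7%, against 26.7% of all genes), 1 was higher (5.56%, against 26.3%), and 5 did not pass. Without the replicate block, 8 of the 18 were lower with an adjusted p under 0.05, beside 18.6% of all genes in that fit. Their median log2 fold change was -0.29. Of the 20 autophagy genes, 13 did not pass, 4 were higher and 3 were lower (35.0% past the p threshold, against 53.0% of all genes), with a median of 0.03. Without the replicate block 4 passed, 3 higher and 1 lower, beside 35.8% of all genes. No test compared these sets with each other. Tested against a log2 fold change of 0.5 itself (edgeR's glmTreat), only Tfe3 among the increases and Psap and Optn among the decreases passed. Of all genes, 11.4% passed that test.

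Levels in controls spanned a wide range, which can be compared between genes in TPM. In the means of replicates 2 to 4, 8 genes were at 100 TPM or more, 30 between 10 and 100 TPM, 7 between 1 and 10 TPM, and Mitf and Wipi1 under 1 TPM. Ctsz, a carboxypeptidase of the cathepsin family, was the highest at 888 ± 49.2 TPM (SD, n = 3), followed by Ctss at 261 ± 44.3 TPM and Gabarap at 229.8 ± 31.5 TPM. Ctss and Gabarap lie within their spread of each other. The median over the 47 was 32.4 TPM, and over all genes tested 15.2 TPM. Summed over the 47 genes, the level was 3380.3 ± 205 TPM in control and 3148 ± 68.1 TPM in 4A1 KO, a difference of -6.87%.

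**Figure D2:**
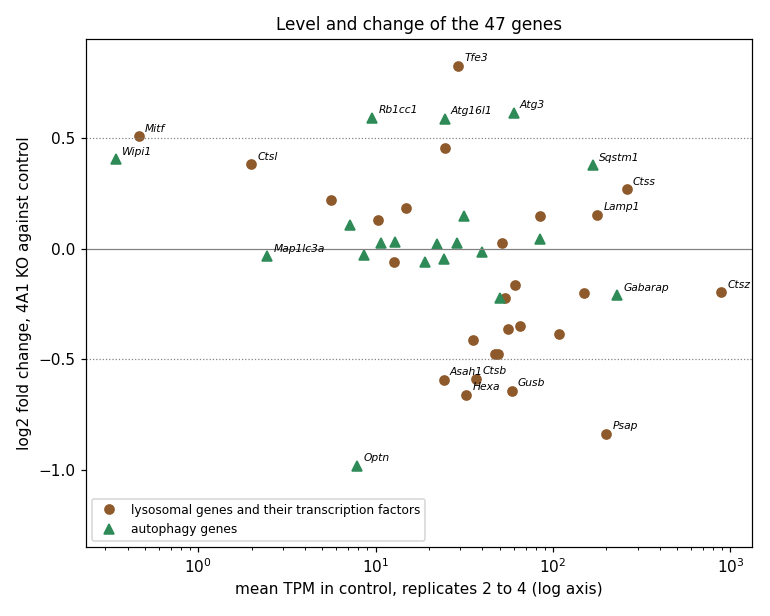
Mean control level (x axis, TPM, log axis, replicates 2 to 4) against log2 fold change (y axis, 4A1 KO against control) for the 47 genes, circles for lysosomal genes and their transcription factors, triangles for autophagy genes. Dotted lines mark 0.5 in each direction. Called genes span from Optn at 7.87 TPM to Psap at 199.6 TPM, and the highest gene, Ctsz, lies between the dotted lines.

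Promoter sequences were read for the element that these factors bind. RefSeq promoter windows of 300 bases (250 before the start and 50 after) were matched by symbol for 37 of the 47 genes, and the others were Ctsb, Ctsh, Npc1, Asah1, Atp6v1h, Rb1cc1, Becn1, Atg12, Atg16l1 and Map1lc3a. The E-box core CACGTG, searched on both strands, was in the windows of 12 of the 37 (32.4%), against 2187 of 27025 genes with a window (8.09%). The longer palindrome TCACGTGA, the inner part of the CLEAR element, which contains CACGTG, was in 7 of the 37 (18.9%), against 304 of 27025 (1.13%). These shares are a description only. The element is known from promoters of lysosomal and autophagy genes, to which all members belong. The comparison set also includes genes that were not tested here. These 7 genes hold 9 such sites, printed here in stretches of 30 bases, 5′ to 3′ on the strand of the gene, with the palindrome in capitals.
Atg3: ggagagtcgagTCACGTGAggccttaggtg
Mcoln1: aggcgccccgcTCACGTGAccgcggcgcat
Atp6v1a: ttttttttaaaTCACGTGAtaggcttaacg
Atp6v0d1: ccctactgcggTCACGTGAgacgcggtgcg
Ctsd: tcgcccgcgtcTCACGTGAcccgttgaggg
Ctsa, first site: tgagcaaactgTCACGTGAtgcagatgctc
Ctsa, second site: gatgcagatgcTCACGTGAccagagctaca
Gla, first site: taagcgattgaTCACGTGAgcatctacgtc
Gla, second site: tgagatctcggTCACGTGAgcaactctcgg

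In GRCm39 each window had 1 exact match. Positions relative to the start use the start of the RefSeq windows, which differs from the GENCODE gene bounds printed elsewhere. Within those bounds, all of these sites except the Gla sites lie inside the gene. The Atg3 site lies at chr16:44979109-44979138 on the plus strand, with the palindrome beginning at position -72 from the RefSeq start. The Mcoln1 site lies at chr8:3550462-3550491 on the plus strand, with the palindrome at -46. The Atp6v1a site is at chr16:43959736-43959765 and the Atp6v0d1 site at chr8:106292682-106292711, both on the minus strand. The Ctsd site is at chr7:141941645-141941674 on the minus strand. The Ctsa sites are at chr2:164675669-164675698 and chr2:164675686-164675715 on the plus strand, on either side of the RefSeq start. The Gla sites are at chrX:133501964-133501993 and chrX:133501931-133501960 on the minus strand. Of the 7 genes, 6 had an adjusted p under 0.05 (53.0% of all genes did), 2 of them higher and 4 lower in 4A1 KO, from -0.48 for Atp6v1a to 0.61 for Atg3 on the log2 scale, and Gla did not pass. Without the replicate block, Ctsa and Atp6v0d1 did not pass either. Atg3 alone among the 7 was called.

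Of the transcription factors, Tfe3 and Tfeb, which encode closely related proteins that move to the nucleus when the kinase mTORC1 is inactive, changed in opposite directions. Tfe3 (chrX:7628761-7641444) was at 33.4, 31.4, 30.4 and 26.1 TPM in controls 1 to 4 and at 54.9, 54.5, 50.8 and 44.7 TPM in knockouts 1 to 4. Every knockout library was above every control. It increased by a log2 fold change of 0.83 ± 0.05 (SE, edgeR adjusted p = 1.45e-05), the largest increase among the 47.

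Tfeb was at 38.2, 47.05, 29.6 and 29.3 TPM in controls and 26.6, 33.5, 21.0 and 23.6 TPM in knockouts. The genotypes overlapped across replicates, but each knockout was below the control of its own number. Its log2 fold change was -0.41 ± 0.07 (edgeR adjusted p = 0.00107), under the fold threshold. The ratio of Tfe3 to Tfeb TPM was 0.874, 0.667, 1.03 and 0.890 in controls and 2.06, 1.63, 2.42 and 1.90 in knockouts, so Tfe3 was the more abundant of the pair in all 4 knockout libraries and in 1 control. Mitf stayed under 1 TPM in all libraries, at a log2 fold change of 0.51 ± 0.23 that did not pass (edgeR adjusted p = 0.0937).

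**Figure D3:**
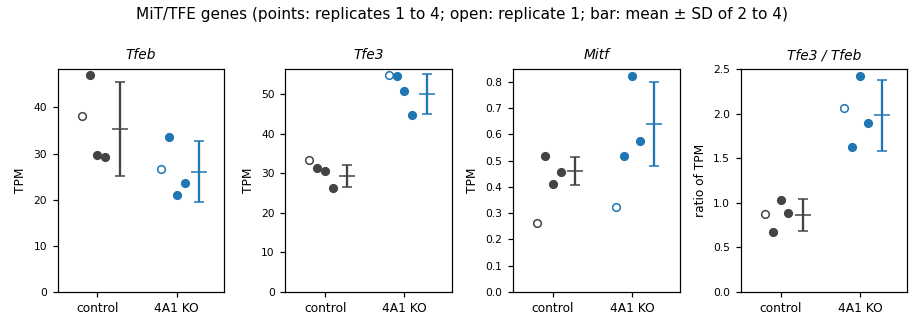
TPM of Tfeb, Tfe3 and Mitf and the ratio of Tfe3 to Tfeb in each library (points, replicates 1 to 4 from left to right, replicate 1 open), with the mean and SD of replicates 2 to 4 beside them. The ratio lies between 0.667 and 1.03 in controls and between 1.63 and 2.42 in 4A1 KO, while the Tfeb points of the genotypes overlap.

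Among the 24 lysosomal genes of the group, the largest decreases were those of Psap, Hexa, Gusb and Asah1. The peptidase gene Ctsb was level with Asah1, at -0.59 for both. Psap (chr10:60113431-60138380) encodes prosaposin, which is cut into the saposins that present sphingolipids to their hydrolases. It was at 184, 239, 166 and 194 TPM in controls and 113, 116, 98.2 and 116 TPM in knockouts. Controls and knockouts did not overlap, and control 2 was the highest. Psap decreased by a log2 fold change of -0.84 ± 0.06 (edgeR adjusted p = 2.23e-05), and by -0.74 without replicate 2. Control 2 had the highest sums of macrophage and fibroblast markers. The macrophage sum there came mostly from Mpeg1 (17.0 TPM), while Lyz2 and Adgre1 were not highest in that library. Any part of such cells in the Psap level was not tested.

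Asah1 (chr8:41792846-41827851), the acid ceramidase, was at 23.1, 25.2, 22.8 and 24.5 TPM in controls and 14.4, 16.4, 14.6 and 16.6 TPM in knockouts. The knockout libraries were tightly grouped and well below the controls, for a log2 fold change of -0.59 ± 0.07 (edgeR adjusted p = 0.000139). Npc2, which hands cholesterol to the membrane transporter NPC1, was lower by less than the threshold, at 47.3 ± 3.88 TPM in control and 34.6 ± 2.61 TPM in 4A1 KO (log2 fold change -0.48 ± 0.05, edgeR adjusted p = 0.000126). Npc1 itself (log2 fold change 0.13) and Smpd1, the acid sphingomyelinase (0.18), did not pass. The sum of the 5 lipid and sterol genes was 296 ± 41.8 TPM in control and 188 ± 15.4 TPM in 4A1 KO, of which Psap made up the larger share in both.

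Among the glycosidases, Hexa and Gusb decreased. Hexa (chr9:59446818-59474021), the alpha subunit of beta-hexosaminidase, was at 39.5, 36.8, 30.6 and 29.9 TPM in controls and 27.2, 21.7, 19.4 and 19.9 TPM in knockouts. Knockout 1, the highest of its group, was below control 4, the lowest of the controls, in TPM. In CPM knockout 1 (30.71) was slightly above control 4 (30.69). The change was -0.66 ± 0.07 on the log2 scale (edgeR adjusted p = 9.82e-05).

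Gusb (chr5:130017852-130031903), the beta-glucuronidase, was at 52.9, 61.6, 56.3 and 57.1 TPM in controls and 30.4, 38.7, 35.8 and 42.0 TPM in knockouts. Again no library crossed over, and the log2 fold change was -0.64 ± 0.07 (edgeR adjusted p = 7.02e-05). Gla, the alpha-galactosidase A, and Neu1, a sialidase, did not pass, with log2 fold changes of 0.22 and -0.06. Gla varied more between replicates than between genotypes, from 3.84 to 10.96 TPM in controls and from 5.62 to 14.6 TPM in knockouts.

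Of the 9 peptidase genes, 7 had an adjusted p under 0.05 and were lower in 4A1 KO (77.8%, against 26.7% of all genes), and Ctsb was the only one past the fold threshold. Ctsb (chr14:63358384-63383372), a cysteine protease, was at 41.5, 42.8, 33.8 and 34.0 TPM in controls and 23.6, 25.5, 22.0 and 25.5 TPM in knockouts. The genotypes stood apart in all 8 libraries, with a log2 fold change of -0.59 ± 0.07 (edgeR adjusted p = 0.000168). The other lower peptidases were Ctsc, an activator of granule proteases (-0.39), Lgmn, an asparaginyl endopeptidase (-0.36), Ctsd, an aspartic protease (-0.35), Ctsa (-0.22), Ctsh (-0.20) and Ctsz (-0.20). Lgmn, Ctsa, Ctsh and Ctsz did not pass without the replicate block. Ctsd shares exon sequence on its own strand with the gene model Gm49369, so its counts are less certain.

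Ctss, the protease that trims the invariant chain of MHC class II, went the other way. It was at 310.2, 247 and 225 TPM in controls 2 to 4 and 375, 289 and 268 TPM in knockouts 2 to 4, so the genotypes overlapped but each pair differed in the same direction. The log2 fold change was 0.27 ± 0.05 (edgeR adjusted p = 0.00114), below the fold threshold. Ctsl, at 1.99 ± 0.380 TPM in control and 2.64 ± 0.537 TPM in 4A1 KO, did not pass. The peptidases summed to 1619 ± 102 TPM in control and 1454 ± 15.9 TPM in 4A1 KO, a sum led by Ctsz.

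**Figure D4:**
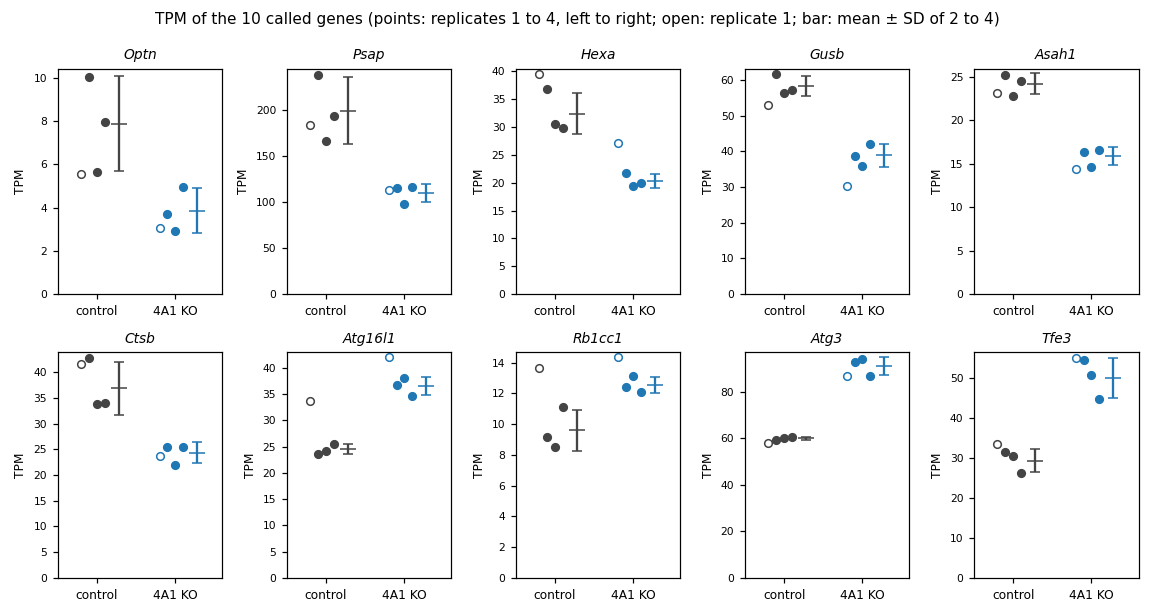
TPM (y axis, from 0) of the 10 called genes in each library of control (grey) and 4A1 KO (blue), replicates 1 to 4 from left to right with replicate 1 open, and the mean and SD of replicates 2 to 4 beside them. For Rb1cc1 the open control point lies inside the knockout range in TPM. For the other 9 genes no control point overlaps a knockout point. In CPM over all 8 libraries, the genotypes overlap for Hexa and Atg16l1 but not for Rb1cc1.

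The size of these differences varied by replicate. Of the 12 peptidase, glycosidase and lipid-handling genes that were lower with an adjusted p under 0.05, 11 had the smallest difference of pairs 2 to 4 in pair 4, the batch B females (91.7%), with Lgmn the exception. In pair 1, which the fit left out, Psap and Hexa differed by less than in pair 4. Among all genes that were lower with an adjusted p under 0.05, 2571 of 3801 (67.6%) also had the smallest of these 3 differences in that pair. Ctsc, for example, had log2 CPM ratios of -0.57, -0.43 and -0.16 in pairs 2 to 4. In a fit to all 8 libraries, no gene of the 47 had an adjusted p under 0.05 for a difference of the genotype effect between batches (0.0141% of all genes did) or between sexes (0.00704%). At an unadjusted p under 0.05 there was 1 for batch, Ctsb (edgeR, log2 difference 0.25 ± 0.11, unadjusted p = 0.0458), and 0 for sex. With 1 library per genotype, batch and sex, this fit could have missed such differences, and neither term singles out pair 4. Of the macrophage and monocyte markers, Mpeg1 decreased (log2 fold change -1.30) and Adgre1 increased (0.62) in 4A1 KO, both called by edgeR. The 4 dendritic cell markers summed to 12.1 to 15.8 TPM in controls and 14.7 to 21.9 TPM in 4A1 KO, with Siglech at 0 throughout, Flt3 decreased (-1.89) and Zbtb46 increased (0.68). The 3 plasma cell markers summed to 23.8 to 35.8 TPM in controls and 14.6 to 39.8 TPM in 4A1 KO, and Sdc1 (-1.22) and Prdm1 (-0.64) decreased while Jchain did not pass. The part of such cells in the lower level of these lysosomal genes was not tested.

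**Figure D5:**
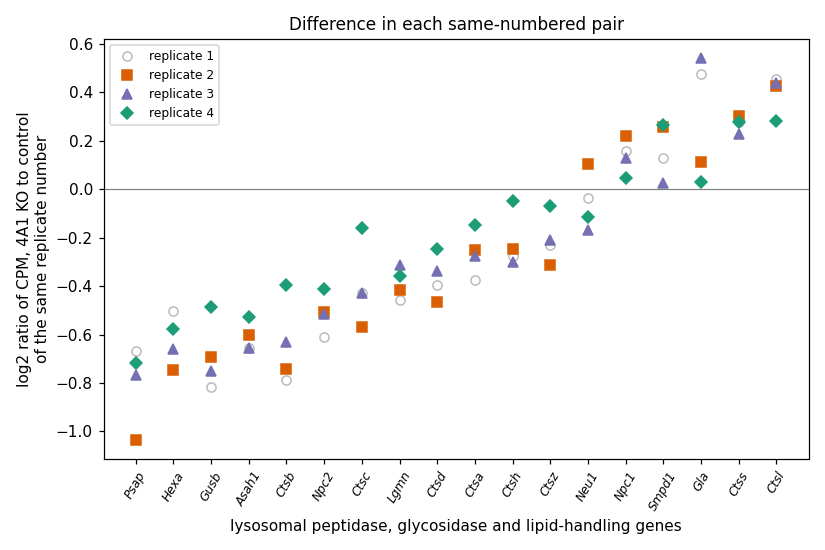
Log2 ratio of CPM in 4A1 KO to control (y axis) within each same-numbered pair, for the 18 peptidase, glycosidase and lipid-handling genes ordered by their fitted fold change (x axis). Open circles are replicate 1, squares replicate 2, triangles replicate 3 and diamonds replicate 4. The diamonds lie nearest to 0 for 11 of the 12 lower genes when replicates 2 to 4 are compared, and all pairs are below 0 for each of these 12.

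Of the lysosomal membrane genes, Lamp1 and Mcoln1 were higher in 4A1 KO with an adjusted p under 0.05, and Lamp1 did not pass without the replicate block. Lamp1, the main glycoprotein of the lysosomal membrane, was at 177 ± 6.48 TPM in control and 196 ± 1.26 TPM in 4A1 KO (log2 fold change 0.15 ± 0.05, edgeR adjusted p = 0.0228). Lamp2, its relative that also serves chaperone-mediated autophagy, did not pass (0.02 ± 0.05). Mcoln1, the calcium channel of the lysosomal membrane, was at 20.7, 25.4 and 28.1 TPM in controls 2 to 4 and 30.9, 34.6 and 36.6 TPM in knockouts 2 to 4. The genotypes were apart in these 6 libraries (log2 fold change 0.46 ± 0.07, edgeR adjusted p = 0.000611), while control 1, at 33.1 TPM, lay inside the knockout range.

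The 3 subunits of the vacuolar ATPase differed in direction and none passed the fold threshold. All had an adjusted p under 0.05, as did 53.0% of all genes, and without the replicate block Atp6v1a alone did. Atp6v1a, the catalytic subunit, was at 48.8 ± 3.28 TPM in control and 35.6 ± 4.02 TPM in 4A1 KO (log2 fold change -0.48 ± 0.06, edgeR adjusted p = 0.000168). Atp6v0d1, of the membrane sector, was at -0.17 and Atp6v1h, a regulatory subunit, at 0.15 on the same scale. Among genes with an adjusted p under 0.05, Atp6v1a and Npc2 were those closest to the fold threshold from outside, and Atg16l1 (0.59) and Ctsb (-0.59) the closest from inside.

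Of the 5 autophagy roles, 3 held called genes, namely the kinase complex, the conjugation system and the receptors. Of the kinase complex that starts autophagy, the kinases Ulk1 (0.03) and Ulk2 (0.11) and the subunit Atg101 (0.03) did not pass. The scaffold gene Rb1cc1 (chr1:6276421-6377444), which encodes FIP200, was at 13.7, 9.17, 8.50 and 11.1 TPM in controls and 14.4, 12.4, 13.2 and 12.1 TPM in knockouts. Replicates 2 to 4 did not overlap, but control 1 was above 3 of the knockouts in TPM. In CPM control 1 (25.5) was below every knockout. Rb1cc1 increased in counts by a log2 fold change of 0.59 ± 0.08 (edgeR adjusted p = 0.000267). The call did not hold on the TPM scale, where limma gave 0.36 on log2(TPM + 1), nor with all 8 libraries, where edgeR gave 0.47.

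None of the 4 nucleation and membrane supply genes passed. Becn1, a subunit of the lipid kinase complex, was at 84.2 ± 2.62 TPM in control and 84.4 ± 7.77 TPM in 4A1 KO. Atg9a, the membrane-spanning lipid scramblase, was at 8.60 ± 0.924 and 8.77 ± 1.35 TPM, with counts that its same-strand neighbour Gm29253 may share. Wipi2, a phosphoinositide-binding protein, was at 22.3 ± 1.36 and 22.7 ± 1.46 TPM, and its relative Wipi1 was under 1 TPM.

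Of the conjugation system, Atg3 and Atg16l1 increased and the rest did not pass. Atg3 (chr16:44978748-45008901), the enzyme that transfers ATG8 proteins to phosphatidylethanolamine, was at 58.0, 59.2, 60.1 and 60.4 TPM in controls and 86.8, 92.5, 94.0 and 86.6 TPM in knockouts. The controls were within a few TPM of each other and far below every knockout, for a log2 fold change of 0.61 ± 0.05 (edgeR adjusted p = 3.43e-05).

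Atg16l1 (chr1:87683592-87720150), which directs the conjugation to the membrane, was at 33.6, 23.7, 24.2 and 25.5 TPM in controls and 42.0, 36.8, 38.0 and 34.7 TPM in knockouts. In TPM, control 1 came close to the lowest knockout and the other controls did not (log2 fold change 0.59 ± 0.06, edgeR adjusted p = 8.37e-05). In CPM control 1 (56.4) was above knockout 4 (54.4). ATG16L1 works in a complex with ATG5 and ATG12, and Atg5 (-0.01), Atg12 (0.03) and Atg7, the activating enzyme (-0.06), did not pass. The system summed to 154 ± 1.92 TPM in control and 195 ± 5.87 TPM in 4A1 KO.

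The ATG8 family genes, the substrates of that system, showed small differences. Gabarap (log2 fold change -0.21 ± 0.06, edgeR adjusted p = 0.0167) and Gabarapl1 (-0.22 ± 0.06, edgeR adjusted p = 0.0164) were lower in 4A1 KO, and Map1lc3a, Map1lc3b and Gabarapl2 did not pass. Map1lc3b, which encodes the widely used autophagosome marker LC3B, was at 31.3 ± 2.44 TPM in control and 31.5 ± 2.12 TPM in 4A1 KO. Its processed pseudogene Gm6055 is 99.6% identical over the aligned stretch and carried 112 to 171 counts, so reads may be split between them.

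The receptors moved apart. Sqstm1, which encodes p62, was at 242, 197, 157 and 150.3 TPM in controls and 321, 235, 220.3 and 189.6 TPM in knockouts, overlapping between genotypes but higher in the knockout of each pair (log2 fold change 0.38 ± 0.06, edgeR adjusted p = 0.000516). Optn (chr2:5022703-5068945), which encodes the ubiquitin-binding receptor optineurin, was at 5.54, 10.0, 5.64 and 7.94 TPM in controls and 3.03, 3.68, 2.93 and 4.97 TPM in knockouts. Controls 1 and 3 came near knockout 4 without overlap. Optn had the largest decrease of the 47 and the least precise among the called genes, at -0.98 ± 0.16 (edgeR adjusted p = 0.000789). Its pair ratios ran from -1.45 in pair 2 to -0.63 in pair 4, and without replicate 2 the fold change was -0.75.

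A list of 91 other lysosome and autophagy genes was tested alongside. Of these, 88 passed the filter on low counts, and Ctsf, Ctsk and Ctsw did not. There were 7 increases and 11 decreases, 20.5% of those tested beside 25.3% of all genes, and the median log2 fold change was -0.02. Among the 28 further lysosomal hydrolases and activators tested, 12 had an adjusted p under 0.05 and were lower (42.9%, against 26.7% of all genes), 3 were higher (10.7%, against 26.3%) and 13 did not pass.

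Among the decreases in that list were several hydrolases. Manba, a beta-mannosidase, was at 8.58 ± 0.776 TPM in control and 3.73 ± 1.01 TPM in 4A1 KO (log2 fold change -1.24 ± 0.13, edgeR adjusted p = 7.89e-05). Sgsh, a sulfamidase of heparan sulfate breakdown (-1.0), and the arylsulfatases Arsa (-0.85) and Arsb (-0.80) also decreased. These 4 had mean control levels under 10 TPM.

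The 5 largest increases belonged to several roles. Atp6v0b, a proteolipid subunit of the vacuolar ATPase, was at 155 ± 6.36 TPM in control and 275 ± 18.3 TPM in 4A1 KO (log2 fold change 0.82 ± 0.05, edgeR adjusted p = 1.31e-05). Calcoco1, an autophagy receptor, had the largest fold change at 1.30 ± 0.10, from 3.93 ± 1.27 to 9.80 ± 2.14 TPM (edgeR adjusted p = 2.64e-05). Atg2b, which transfers lipid to the growing membrane, was at 0.62, and the hydrolases Ppt2 (0.60) and Acp2 (0.54) were below 3 TPM in both genotype means. Neither was called with DESeq2. Acp2 was also not called with all 8 libraries (0.40), and Ppt2, whose genotypes overlapped, not without the replicate block.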

How the data were processed

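RNA of 8 libraries from activated splenic B cells was analysed, 4 control and 4 4A1 KO, with the genotype, batch, sex and replicate number taken from the labels. The authors trimmed the reads with Trim Galore 0.6.6, mapped them to GRCm39 with HISAT2 2.1.0 and deposited raw read counts per gene, made with Seqmonk over merged isoforms with strand-specific pairs, with no normalization. TPM were deposited as the authors obtained them from those alignments with StringTie 2.1.1. How reads with several matches were counted is not given in the sources used here.

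Counts of replicates 2 to 4 were tested in R 4.3.3 with edgeR 4.0.16 (filterByExpr by genotype, TMM, quasi-likelihood test, two-sided, Benjamini-Hochberg adjustment over 14218 genes) with batch, sex and genotype in the model. In these 6 libraries batch and sex together equal the replicate number as a block. The labels give same-numbered libraries the same batch and sex, and across genes their deviations from the genotype means correlated at 0.489, 0.404 and 0.334. Means ± SD are over replicates 2 to 4, and SE are of the fitted fold change. TPM were also compared with limma 3.58.1 on log2(TPM + 1), with genes of a mean under 1 TPM left out. Other alternatives were upper quartile and DESeq2 scaling, DESeq2 1.42.0, other filters, no block, all 8 libraries, each replicate left out, and glmTreat. The code was tested on simulated data.

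All 47 genes are accounted for. Called genes are given per library, others by mean or fold change, together with the genes next to the fold threshold and the 5 largest called changes in each direction among the other pathway genes. A gene that this rule selects is not reported here. The genes and lists were chosen with earlier results of these data known. Gene positions come from GENCODE M39 (GRCm39). The RefSeq promoter windows come from a table of build GRCm38.p6, and positions were taken only from exact matches in GRCm39. Transcripts were compared with blastn 2.17.0 to find near-identical copies. Several further members also share identical stretches with other genes, but without exon overlap on the same strand. Among them are Ctsb (with Fdft1), Gusb (with Vkorc1l1) and Atp6v1a (with Naa50).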

Additional observations from a re-analysis of the deposited data

Results flagged for a closer look

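In each of 94 groups, made of the 4 libraries of a genotype for each of the 47 genes, the gap between the most extreme library and its nearest neighbour was divided by the range of the group in TPM. In 4 groups this share was above Dixon's critical value, where chance would give 4.7, as about 1 group in 20 passes by chance. Control 4 stood apart for Atp6v1h (gap share 0.921, 90.3 TPM with the nearest control at 81.8) and for Atg9a (0.876, 9.66 TPM with the nearest at 8.18). Control 2 stood apart for Neu1 (0.877, 11.9 TPM with the nearest at 13.1) and for Map1lc3a (0.861, 2.80 TPM with the nearest at 2.35). None of these 4 genes was called.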

How the results depend on the processing

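Of 747 values of single genes under the alternatives, 704 kept their direction and their call by both thresholds together, 5 were called newly, 13 lost the call and 25 changed sign. The 4 increases and 6 decreases among the 47 genes numbered 1 and 2 with glmTreat against 0.5, and those among the other pathway genes 2 and 5. The 7 increases of the other pathway genes numbered 4 with DESeq2 and normal shrinkage, 4 with limma on log2(TPM + 1) and 4 without the filter on low TPM. Without the replicate block the fit again made 4 and 6 calls, but the genes with an adjusted p under 0.05 whatever the fold fell from 27 to 15 and the lower ones from 18 to 10, while the share of all genes fell from 53.0% to 35.8%. These numbers were 17 and 10 in the TPM fit without a filter (19.6% of all genes), 20 to 27 and 13 to 18 with a replicate left out (39.9% to 50.7%), and 25 and 17 with DESeq2 (40.6% of genes with an adjusted p). With all 8 libraries, 13 of the 47 did not overlap between genotypes, where 21 had not in 6 libraries. The batch and sex fit to all 8 libraries then lost Rb1cc1 and gained Npc2, and the fit with the replicate block also gained Mitf (log2 fold change 0.51). Rb1cc1 was also lost in the TPM fits, and Optn in the TPM fit without a filter (limma adjusted p = 0.0504, with 5.58e-06 to 0.0504 over all its alternatives). Leaving out each replicate gave 4 to 4 increases and 6 to 8 decreases. Without replicate 4, Npc2 (-0.51) and Atp6v1a (-0.53) passed too. For the other pathway genes it gave 6 to 9 and 10 to 12. The median log2 fold change ranged from -0.0239 to 0.0088 over all settings, and from -0.0157 to 0.0071 with a replicate left out.

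Signs changed only for genes with an adjusted p above 0.05. Atg5 was at 0.0088 with upper quartile scaling and at 0.0109 and 0.0107 in the fits to 8 libraries, where Ulk1 was at -0.0157 and -0.0095. In the TPM fits with a pseudocount of 1, with or without the filter, Lamp2 was at -0.0303, Becn1 at -0.0006, Atg9a at 0.0191 and Map1lc3a at 0.028. With a pseudocount of 0.1 they were at -0.0308, -0.0007, 0.0204 and 0.0353. With a replicate left out, the ranges were -0.0171 to 0.0593 for Lamp2, -0.0157 to 0.0893 for Ulk1, -0.0693 to 0.0538 for Atg9a, -0.0087 to 0.8432 for Wipi1, -0.0619 to 0.022 for Atg5, -0.001 to 0.0668 for Atg12 and -0.0743 to 0.0199 for Map1lc3a. The cause of these changes was not tested. With 3 libraries per genotype, genes under 1 TPM such as Mitf and Wipi1 had standard errors of 0.23 and 0.37.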
